A study of Mus musculus with 4 samples.

Results

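Messenger RNA of 8 genes was followed in single cells of mouse pancreatic islets: the poly(ADP-ribose) polymerase (PARP) family members *Parp1*, *Parp3*, *Parp9*, *Parp10*, *Parp11*, *Parp12* and *Parp14*, and *Dtx3l*, which encodes a ubiquitin ligase of the Deltex family. They were taken by gene symbol from the 31053 genes in the deposited matrices, and each symbol matched 1 row. PARP enzymes split NAD and attach its ADP-ribose to proteins. PARP1 and PARP3 act where DNA strands are broken, and PARP1 is known in islets for using up NAD when β-cell DNA is damaged. PARP9 forms a complex with DTX3L, PARP10, PARP11, PARP12 and PARP14 attach single ADP-ribose units, and several of these genes are known targets of interferon.

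Islets from male C57BL/6 mice (substrain J per the study's methods) were pooled and divided into 4 portions. The whole islets were left untreated or kept for 6 h with human recombinant IL-1β, with mouse IFN-γ or with both. Each portion was then dissociated and made into 1 droplet 3′ library, so every condition had 1 library and differences between conditions have no replicate check. Because the mice were pooled, animals cannot be told apart within a library. No p-value was therefore computed, and the 95% intervals given cover counting error only. They are exact Poisson intervals for levels and their ratios and exact Clopper-Pearson intervals for shares of cells. Where the level after both cytokines is set against summed gains, or ratios are compared between cell classes, intervals are normal approximations on the log scale. These approximations are rough where few UMIs (counted transcripts) were found.

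The untreated matrix held 3486 barcodes, that of IL-1β 2911, that of IFN-γ 3694 and that of both cytokines 2480. Counting used unique molecular identifiers (UMIs), which mark single captured transcripts. A filter on detected genes (200 to 4000) and on the mitochondrial share of UMIs (no more than 12%) left 1521, 2018, 2122 and 1810 cells in that order. Their median depth was 15454 UMIs in the untreated library, 7462.5 after IL-1β, 9615 after IFN-γ and 11123.5 after both. The untreated library was thus the deepest and the IL-1β library the shallowest. Among the kept cells 4 barcodes occurred in more than 1 library.

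Cells were placed in classes by the share of their UMIs from each hormone gene, or by marker genes where no hormone led. The class led by insulin, called β-like, held 1196 untreated cells, 1166 after IL-1β, 1311 after IFN-γ and 1274 after both. The glucagon-led α-like class held 89, 330, 296 and 167 cells, and the somatostatin-led δ-like class held 65, 164, 179 and 117. All 10 β-cell markers, 8 α-cell markers and 5 δ-cell markers that were listed had UMIs in their own class. Insulin RNA was counted in every class: it made up 0.545% of the UMIs of untreated α-like cells and 0.130% to 0.223% of those in the 3 cytokine libraries. Its source in classes not led by insulin was not tested. Levels are given as CPM, the UMIs of a gene per 1000000 UMIs of the class. In 3′ libraries these values do not scale with transcript length, so the order of 2 genes compares counted transcript ends.

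In the genome *Parp14*, *Dtx3l* and *Parp9* lie side by side on chromosome 16 of the mouse assembly GRCm38. *Parp14* covers chr16:35832874-35871544 on the minus strand, *Dtx3l* covers chr16:35926511-35939151 on the minus strand, and *Parp9* covers chr16:35938470-35972605 on the plus strand. *Dtx3l* and *Parp9* overlap head to head by 682 bases, *Parp14* ends 54966 bases from *Dtx3l*, and all 3 fit in 139732 bases. The other members are scattered, with *Parp1* at chr1:180568924-180601254 (plus), *Parp3* at chr9:106470322-106476949 (minus), *Parp10* at chr15:76231174-76243441 (minus), *Parp11* at chr6:127446840-127494261 (plus) and *Parp12* at chr6:39086410-39118349 (minus). Annotated genes overlap *Parp1* (*Mir6904*), *Parp3* (*Rrp9*), *Parp9* (the antisense gene *Gm15564*), *Parp10* (*Plec*), *Parp11* (*Gm43633*) and *Parp14* (*Gm49730*). How strand was used in the deposited counting was not stated, so reads in these overlaps are uncertain.

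Promoter sequences of RefSeq (assembly GRCm38.p6, 250 bases before to 50 bases after each start) were available for *Parp1*, *Parp3*, *Parp11*, *Parp12* and *Dtx3l*, in 6 windows. They were searched on both strands for the cores of the elements bound by interferon-activated factors, the interferon-stimulated response element (ISRE, letters GAAANNGAAA) and the gamma-activated site (GAS, letters TTCNNNGAA). The ISRE core was in 3.45% and the GAS core in 8.33% of all 32544 windows of this length. Among the members, 1 window of *Parp11* held a match, and that window held both cores, overlapping by 3 bases. The 74 bases before this *Parp11* start (chr6:127446766-127446839, plus strand) are shown because they hold the matches, in capitals: the ISRE core on the reverse strand spans 44 to 35 bases before the start and the GAS core 37 to 29 bases before it. The 74 bases before the *Parp1* start (chr1:180568817-180568890, plus strand) are shown beside them and have no match. *Parp1* is the member with the smallest differences between libraries in the β-like class. The matched bases lie outside annotated exons. A match describes letters and not a binding site, and its absence says only that these letters are not in the window.
Parp11: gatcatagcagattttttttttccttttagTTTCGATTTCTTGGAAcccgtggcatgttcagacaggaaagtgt
Parp1: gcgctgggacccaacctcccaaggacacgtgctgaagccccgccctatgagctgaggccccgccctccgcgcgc

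The comparison of each cytokine with no cytokine asks which of these transcripts differ when islet cells meet IL-1β, IFN-γ or both. In β-like cells *Parp9*, *Parp12*, *Parp14* and *Dtx3l* were at 10.6 to 12.1 CPM untreated and 9.41 to 14.2 times higher after IFN-γ. With IL-1β alone the same 4 genes were at 2.79 to 4.03 times their untreated level. *Parp14* stood out after both cytokines, at 28.3 times its untreated level. *Parp10* and *Parp11* differed less, *Parp3* had the fewest transcripts, and *Parp1* differed least.

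*Parp14* encodes a large mono-ADP-ribosyltransferase with macrodomains, modules that bind ADP-ribose. Its β-like level was 12.1 CPM untreated (10.6 to 13.7), 48.8 after IL-1β (44.6 to 53.4), 172 after IFN-γ (166 to 179) and 343 after both (334 to 352). The 4 intervals were apart from each other, and the order was untreated, IL-1β, IFN-γ, both. The ratio to untreated was 4.03 after IL-1β (3.45 to 4.72), 14.2 after IFN-γ (12.5 to 16.3) and 28.3 after both (24.9 to 32.3). With both cytokines it was the most abundant of the 8 transcripts.

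*Parp9* encodes an inactive or weakly active PARP with macrodomains that is stable in its complex with DTX3L. Its β-like level was 10.9 CPM untreated (9.52 to 12.5), 43.5 after IL-1β (39.4 to 47.8), 131 after IFN-γ (126 to 138) and 173 after both (167 to 180.0). For its partner *Dtx3l* the levels were 10.6 (9.2 to 12.1), 41 (37.1 to 45.2), 99.5 (94.4 to 105) and 172 (166 to 179) in the same order. The partners were level with each other in the untreated, IL-1β and double-treated libraries, where their intervals overlapped. With IFN-γ alone *Parp9* was above *Dtx3l*, with intervals apart. The ratios to untreated were 3.98 after IL-1β, 12 after IFN-γ and 15.9 after both for *Parp9*, against 3.88, 9.41 and 16.3 for *Dtx3l*.

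*Parp12* encodes a zinc-finger mono-ADP-ribosyltransferase known for restricting viruses. Its β-like level was 11.4 CPM untreated (9.99 to 13.0), 31.9 after IL-1β (28.5 to 35.6), 109.9 after IFN-γ (104 to 115) and 102 after both (97.3 to 107). Unlike *Parp14*, it had overlapping intervals after IFN-γ alone and with both, and its ratio between these libraries was 0.931 (0.868 to 0.998), which became 1.12 once ratios were divided by the median of all genes. Against untreated it was 2.79 times higher after IL-1β, 9.62 times after IFN-γ and 8.95 times after both.

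*Parp10*, a mono-ADP-ribosyltransferase first described as a MYC-binding protein, had 10.0 CPM untreated (8.69 to 11.5), 14.8 after IL-1β (12.5 to 17.4), 46.5 after IFN-γ (43.1 to 50.2) and 61.4 after both (57.6 to 65.5). Its ratio to untreated was 1.48 after IL-1β (1.19 to 1.84), 4.64 after IFN-γ and 6.13 after both. *Parp11*, a mono-ADP-ribosyltransferase linked to the nuclear envelope, had 7.23 CPM untreated (6.1 to 8.51), 10.2 after IL-1β (8.26 to 12.3), 21.8 after IFN-γ (19.5 to 24.4) and 16.5 after both (14.6 to 18.7). It was 3.02 times higher after IFN-γ and 2.29 times after both, so its highest library was IFN-γ alone.

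*Parp3*, a DNA-break enzyme, was counted from few transcripts in β-like cells: 9 UMIs untreated, 19 after IL-1β, 22 after IFN-γ and 68 after both. This gave 0.449 CPM untreated (0.205 to 0.852), 1.93 after IL-1β (1.16 to 3.01), 1.53 after IFN-γ (0.962 to 2.32) and 4.36 after both (3.38 to 5.52). The level after both was above the other 3, at 9.70 times untreated with a wide interval (4.82 to 22.1).

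*Parp1*, the main sensor of DNA strand breaks in the family, was the most abundant member in untreated β-like cells, with 30.6 CPM (28.3 to 33.1). It was at 31.7 after IL-1β (28.3 to 35.4), 39.1 after IFN-γ (35.9 to 42.4) and 22.9 after both (20.6 to 25.4). The ratio to untreated was 1.03 after IL-1β (0.900 to 1.19), 1.28 after IFN-γ (1.14 to 1.43) and 0.747 after both (0.654 to 0.852). Hormone transcripts took different shares of the β-like libraries, 47.5% untreated, 28.4% after IL-1β, 34.2% after IFN-γ and 38.0% after both, and this moves every other gene on the CPM scale. With the hormone genes left out of the totals the *Parp1* ratios were 0.757, 1.02 and 0.632, so its value after IL-1β turned from about level to lower and its higher level after IFN-γ was gone. The same totals gave 2.95, 11.3 and 24.0 for *Parp14*, which kept its order, while the IL-1β ratios of *Parp10* and *Parp11* came down to 1.08 and 1.03.

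**Figure D1:**
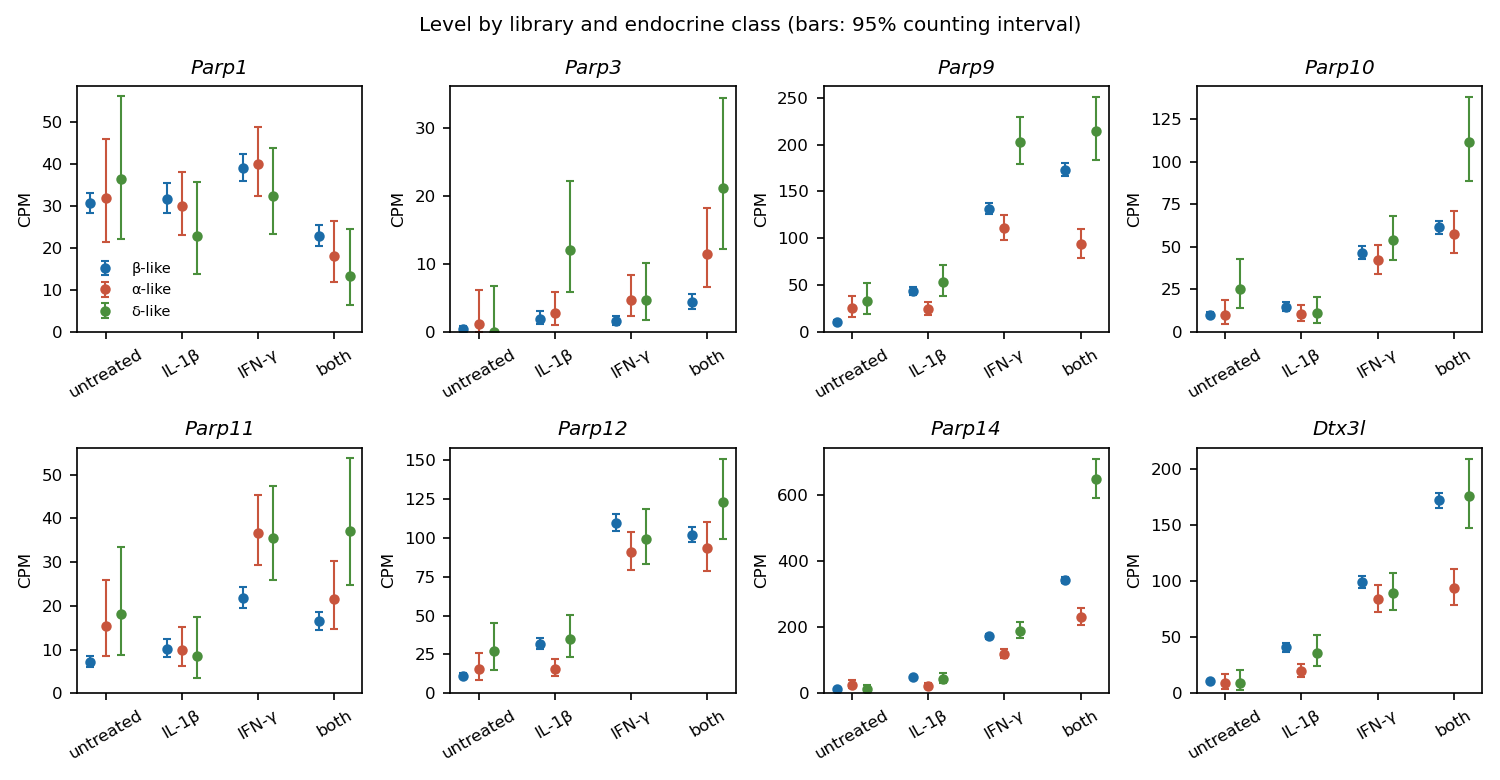
Level of each of the 8 genes (vertical axis, CPM, starting at 0) in the 4 libraries (horizontal axis), with points for β-like, α-like and δ-like cells and bars for the 95% counting interval. *Parp14* reaches 343 in β-like and 649 in δ-like cells with both cytokines, while *Parp1* has its lowest value of the 4 libraries there in all 3 classes.

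These values were read against all genes. A gene was counted as 2-fold higher when the ratio of its levels, with 1 CPM added to each, was at least 2, among genes with a mean of at least 2 CPM. In β-like cells 10744 genes passed this minimum, all 8 members among them, though *Parp3* passed it only through its cytokine libraries, so counts that hold it are also given over the other 7. With IL-1β 5 of the 8 members were 2-fold higher (3 without hormone genes in the totals), against 14.2% of all genes, and the members' median log2 ratio was 1.21 against 0.34 for all genes. With IFN-γ 6 of 8 were 2-fold higher against 3.83% of all genes (median log2 ratio 2.61 against 0.29), and with both 7 of 8 against 9.94% (2.78 against 0.03). Without hormone genes in the totals the last count was 6 (5 of the other 7), since *Parp11* was then at 1.93 times untreated. The counts of 5 and 7 with full totals hold *Parp3*, so they are no support by themselves. Over the 7 members other than *Parp3* the counts were 4 after IL-1β, 6 after IFN-γ and 6 after both. The members' medians were taken over all 8 and were not repeated without *Parp3*. No member was 2-fold lower in β-like cells.

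The IL-1β share depended on the totals: without hormone genes 6.75% of genes were 2-fold higher and 9.86% lower, where the full totals gave 14.2% and 3.55%, and the median log2 ratio of all genes was -0.08 in place of 0.34. For both cytokines the same step gave 8.17% higher and 13.6% lower in place of 9.94% and 7.31%. For IFN-γ it gave 2.48% higher and 0.772% lower in place of 3.83% and 0.102%. *Parp14* after IFN-γ lay at the edge of the distribution, since 0.382% of all genes had a ratio as large, and for *Parp9*, *Parp12* and *Dtx3l* the shares were 0.419%, 0.475% and 0.512%. With IL-1β the shares were larger, 3.26% for *Parp14*, 3.37% for *Parp9* and 3.51% for *Dtx3l*. *Parp1* was inside the bulk, with 68.1% of genes at or above it after IL-1β.

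**Figure D2:**
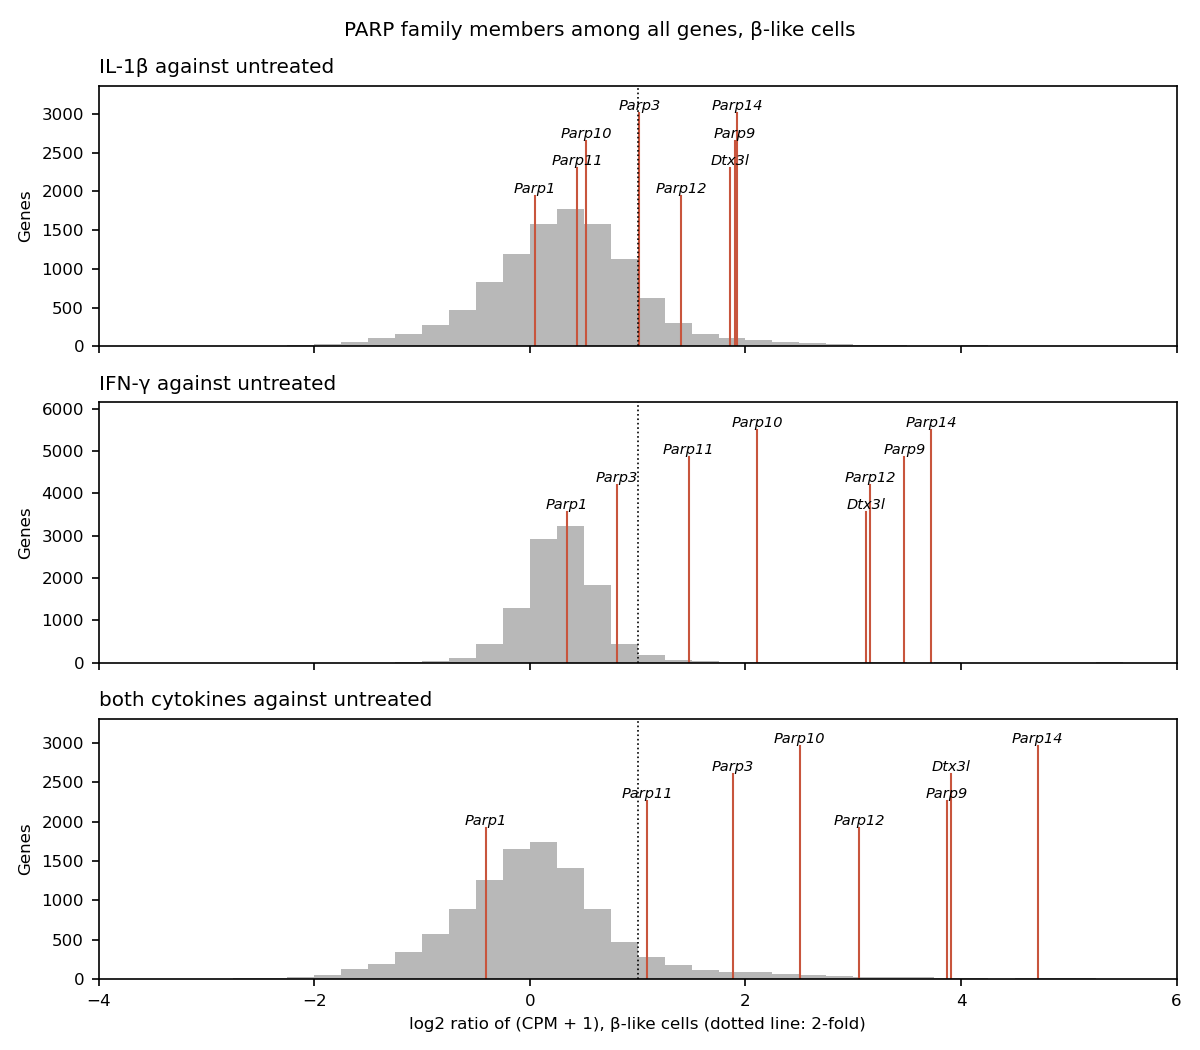
Number of genes (vertical axis) by log2 ratio of CPM plus 1 in β-like cells (horizontal axis), for IL-1β, IFN-γ and both cytokines against untreated, with red lines at the 8 members and a dotted line at 2-fold. With both cytokines *Parp14* lies farthest right and *Parp1* is the member left of 0.

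The library after both cytokines was next set against each single-cytokine library. Against IFN-γ alone, *Parp14* was 1.99 times higher (1.9 to 2.09) and *Dtx3l* 1.73 times higher (1.62 to 1.85). *Parp9* and *Parp10* were each 1.32 times higher, with intervals of 1.24 to 1.40 and 1.20 to 1.46. *Parp11* was lower, at 0.757 of its IFN-γ level (0.640 to 0.896), and *Parp1* lower still, at 0.586 (0.511 to 0.670). By the 2-fold limit 1 of 8 members, *Parp3*, was higher than after IFN-γ alone, against 4.9% of all genes, but *Parp3* passed the minimum of 2 CPM only through the double-treated library, so the count reads as none of the other 7. *Parp14* lay just under the limit. Against IL-1β alone 5 of 8 were 2-fold higher, namely *Parp9*, *Parp10*, *Parp12*, *Parp14* and *Dtx3l*, against 2.03% of all genes, with *Parp14* at 7.02 times.

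The level after both cytokines was also compared with the level that adding the 2 single-cytokine gains to the untreated level would give. *Parp14* was above that sum in each endocrine class: 1.64 times in β-like cells (1.56 to 1.72), 2.01 times in α-like cells (1.66 to 2.44) and 2.94 times in δ-like cells (2.51 to 3.45). *Dtx3l* was 1.32 times above it in β-like cells (1.24 to 1.41) and 1.51 times in δ-like cells (1.17 to 1.95), and level with it in α-like cells, at 0.994 (0.794 to 1.24). *Parp9* met the sum in β-like cells, at 1.06 (0.997 to 1.12). The neighbours on chromosome 16 thus differed in this measure with full totals. All these sums used totals that hold hormone genes, and they were not recomputed without them. On that other scale the β-like *Parp9* ratios to untreated were 2.91 after IL-1β, 9.60 after IFN-γ and 13.4 after both. Whether *Parp9* meets the sum there was not tested. The result depends on the scale: against the level that multiplying the 2 single-cytokine ratios would give, *Parp14* was at 0.494 in β-like, 2.27 in α-like and 1.0 in δ-like cells, and *Dtx3l* at 0.446 in β-like cells. *Parp12* was below the sum in β-like cells, at 0.785 (0.731 to 0.842), as were *Parp11*, at 0.668 (0.557 to 0.801), and *Parp1*, at 0.570 (0.481 to 0.675). *Parp10* was 1.20 times above the sum in β-like cells (1.07 to 1.33) and 2.82 times in δ-like cells (1.64 to 4.86).

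**Figure D3:**
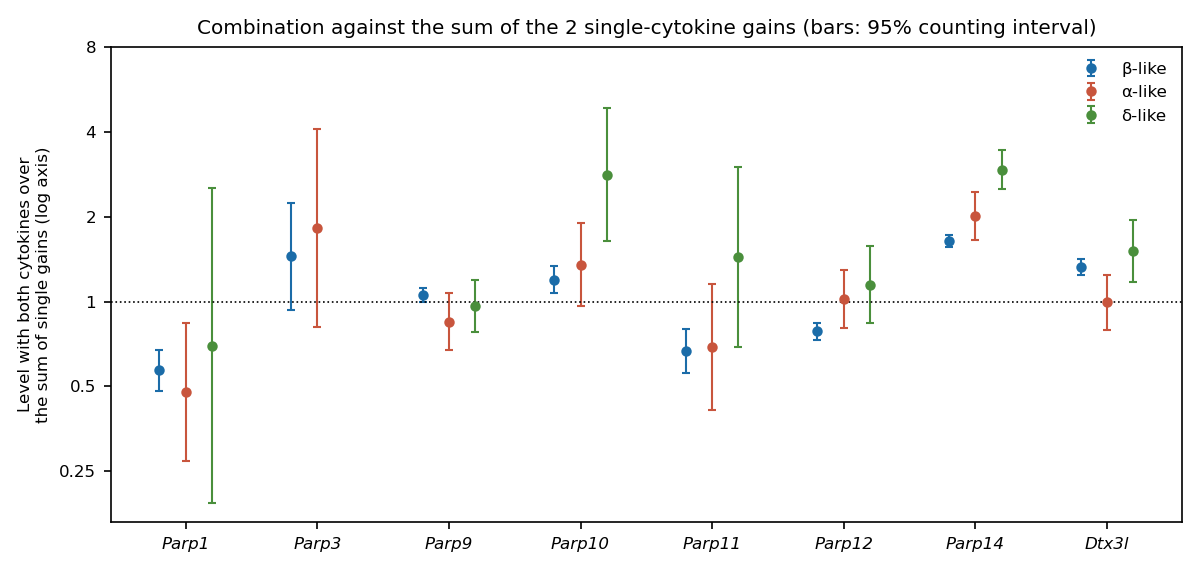
Level after both cytokines divided by the untreated level plus both single-cytokine gains (vertical log axis), for the 8 genes (horizontal axis) in β-like, α-like and δ-like cells, with bars for the 95% counting interval and a dotted line at 1. *Parp14* is above 1 in all 3 classes, while *Parp1*, *Parp11* and *Parp12* are below 1 in β-like cells.

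The share of β-like cells with at least 1 UMI of a gene was also counted. *Parp14* was seen in 17.1% of untreated cells, 27.7% after IL-1β, 73.6% after IFN-γ and 87.7% after both. Because the libraries differed in depth, cells were also thinned to 4000 UMIs each, hormone UMIs included. The thinned *Parp14* shares were 4.53%, 17.4%, 46.4% and 65.6%, and their 4 intervals were apart, as they were before thinning. For *Parp9* they were 3.92%, 16.2%, 37.4% and 48.4%, and for *Dtx3l* 4.53%, 15.2%, 32.2% and 47.3%. *Parp1*, by contrast, was seen in 39.5% of untreated cells and 22.1% after IL-1β before thinning but in 11.1% and 11.6% after it.

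A cell class known to lack these 8 transcripts was not present, so no background share could be set beside these. Cells with 5 or more *Parp14* UMIs made up 0%, 0.343%, 9.46% and 35.9% of β-like cells in the 4 libraries, untreated first. All of *Parp9*, *Parp12*, *Parp14* and *Dtx3l* were seen together in 0.167% of untreated β-like cells, 1.72% after IL-1β, 29.6% after IFN-γ and 45.2% after both. None of the 4 was seen in 51.3%, 33.9%, 8.31% and 4.55% of cells in turn. After thinning to 4000 UMIs all 4 were seen in 0%, 0.367%, 3.43% and 6.84% of cells, and none of them in 82.9%, 53.5%, 19.6% and 11.0%.

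Within a library the members were then compared cell by cell after thinning to the same total of UMIs, with hormone share not matched, where cells of 1 library are not replicates and the values describe that library. With both cytokines, thinned β-like cells that had a *Parp9* UMI also had *Parp14* in 71.6% of cases (67.8% to 75.2%), against 59.9% of cells without *Parp9* (56.0% to 63.7%). *Parp12* was seen in 36.9% against 26.8% of the same cells, with intervals apart. *Dtx3l*, the partner and overlapping neighbour of *Parp9*, was seen in 50.5% (46.4% to 54.6%) against 44.3% (40.4% to 48.2%), with overlapping intervals. With IFN-γ alone *Dtx3l* was seen in 39.4% of cells with *Parp9* and 27.9% of cells without it. *Parp1* was seen in 14.1% and 16.7% of the same cells, with overlapping intervals, and after both cytokines in 10.1% and 7.96%, again with overlapping intervals.

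In α-like cells, which make glucagon, most members were higher after IFN-γ and after both cytokines, and most were near their untreated level after IL-1β alone. *Parp14* was at 26.5 CPM untreated, 22.7 after IL-1β, 119 after IFN-γ and 232 after both. Its IL-1β ratio was 0.857 with an interval that held 1 (0.517 to 1.46), while IFN-γ gave 4.49 (2.96 to 7.12) and both gave 8.75 (5.78 to 13.8). *Parp9* was at 25.4, 24.5, 111 and 93.3 CPM, and *Dtx3l* at 8.83, 19.5, 83.9 and 94. Under IL-1β the partners had overlapping ratios in these cells, 2.21 for *Dtx3l* (1.03 to 5.45, from 8 untreated UMIs) and 0.966 for *Parp9* (0.583 to 1.65). *Parp12* was at 15.4, 15.9, 91.0 and 93.3, and *Parp10* at 9.93, 10.4, 42.2 and 57.7.

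By the 2-fold limit 1 member, *Dtx3l*, was higher in α-like cells with IL-1β, against 8.61% of 11204 genes tested. It was under the limit when hormone genes were left out, with cells thinned to 4000 UMIs and with each cell weighted equally. With IFN-γ 7 of 8 were higher against 7% of genes, and with both 6 of 8 against 9.91%. *Parp3*, with 1 untreated UMI in this class, is in the latter 2 counts and passed the minimum only through its cytokine libraries, so they are no support by themselves. Over the other 7 members they were 6 and 5. With cells thinned to 4000 UMIs, 13.4% of genes were higher after IFN-γ and 14.9% after both, with 5 of the other 7 members in each. The ratio in β-like cells was larger than the ratio in α-like cells under IL-1β for *Parp14*, by 4.70 times (2.82 to 7.83), for *Parp9*, by 4.12 times (2.46 to 6.89), and for *Parp12*, by 2.71 times (1.43 to 5.16). These intervals carry counting error only, and with 1 library per condition the difference between classes was not tested.

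In δ-like cells *Parp14* had the largest level of any endocrine class after both cytokines. It was at 12.7 CPM untreated (from 7 UMIs), 43.4 after IL-1β, 190.0 after IFN-γ and 649 after both (593 to 709). The last was 51.0 times the untreated level, with a wide interval of 24.6 to 128 set by the few untreated transcripts, and 3.41 times the IFN-γ level (2.92 to 4.0). *Parp10* was 2.06 times its IFN-γ level, at 111 CPM against 54.1. *Dtx3l* stood at 9.09, 36.2, 89.6 and 176 CPM and *Parp9* at 32.7, 53.1, 203 and 215. *Parp1* was at 36.4 untreated and 13.3 after both, a ratio of 0.365 (0.153 to 0.817).

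*Parp3* had no UMI in the 65 untreated δ-like cells, where 3 UMIs would be 5.45 CPM. It was at 12.1 after IL-1β, 4.63 after IFN-γ and 21.2 after both, from 10, 6 and 16 UMIs. Among the δ-like ratios, 3 of 8 members were 2-fold higher and 2 (*Parp10* and *Parp11*) 2-fold lower after IL-1β, against 12.2% of 11484 genes higher and 15.1% lower. With IFN-γ 6 of 8 were higher against 7.19%, and with both 6 of 8 against 12.7%. After both *Parp1* was 2-fold lower, as were 22.8% of all genes. *Parp3* is in each of these 3 counts and passed the minimum of 2 CPM in this class only through its cytokine libraries, so the counts are no support by themselves. Over the other 7 they were 2, 5 and 5. For these 7 the IFN-γ count was 4 with each cell weighted equally (8.04% of all genes) and 6 with no upper gene limit (5.33%). With cells thinned to 4000 UMIs it was 5 against 13.8%, and the IL-1β count was 3 against 16.1%. The count for both cytokines was 6 in several settings, such as a mitochondrial limit of 20% (12.1% of genes).

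The endothelial-like, macrophage-like, mesenchymal-like and ductal-like classes held 10 to 46 cells per library, and their levels are given as descriptions. Endothelial-like cells had the highest *Parp14* of these and the 3 endocrine classes after IFN-γ, at 562 CPM (479 to 656), with ductal-like cells next at 402 (327 to 489). The endothelial-like level was 34.1 untreated (from 7 UMIs), 80.5 after IL-1β and 528 after both. *Parp14* in them thus showed no higher level after both than after IFN-γ alone, where β-like, α-like and δ-like cells did. After IFN-γ and after both it was at 402 and 336 in ductal-like cells, so this was not particular to endothelial-like cells. It was at 147 and 179 in macrophage-like and 132 and 210 in mesenchymal-like cells. *Parp9* (309) and *Dtx3l* (281) were also higher in endothelial-like than in β-like cells after IFN-γ. Hormone genes, though, took 34.2% of β-like and 0.330% of endothelial-like UMIs. *Parp3* had a different distribution from the rest: after IFN-γ it was at 116 CPM in mesenchymal-like and 83.3 in endothelial-like cells, 75.4 times (39.4 to 144) and 54.3 times (29.2 to 102) its β-like level. *Parp1* was highest in untreated macrophage-like cells, at 67.3, and stood at 11.2 there after both cytokines. The latter value rests on 3 UMIs in 31 cells.

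**Figure D4:**
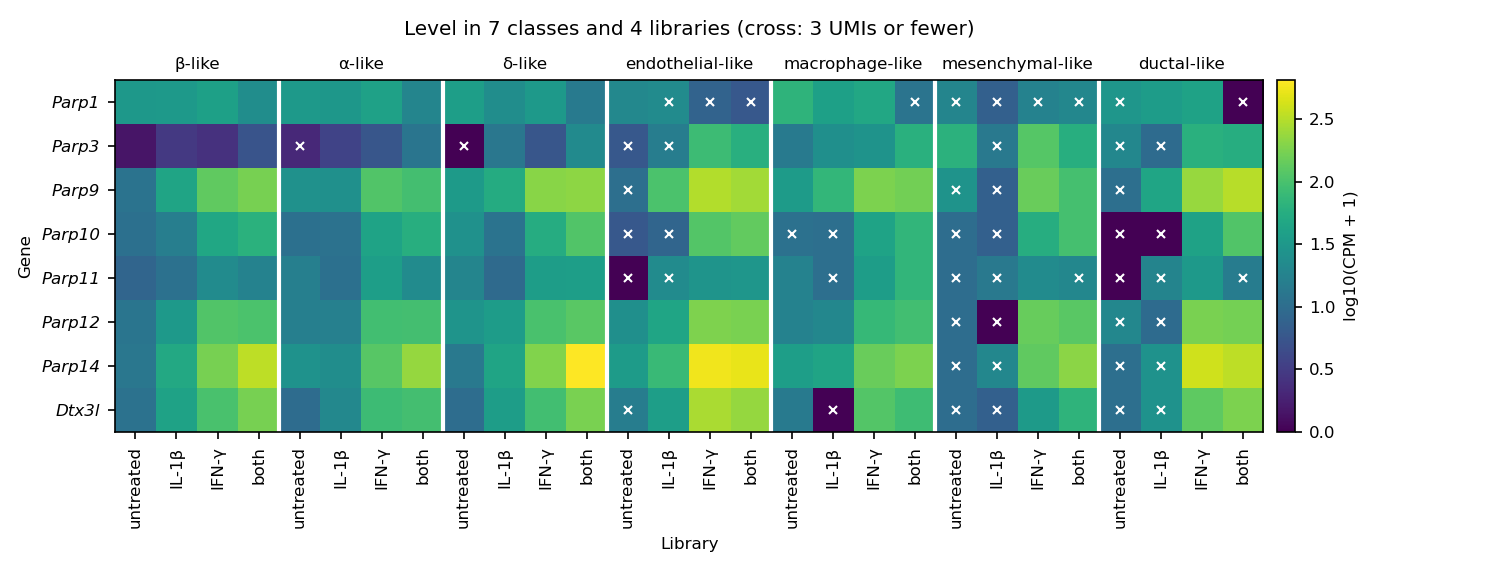
Colour map of log10(CPM + 1) for the 8 genes (rows) in 7 classes and 4 libraries (columns), with a cross where a value rests on 3 UMIs or fewer. *Parp3* is brightest outside the endocrine classes, and *Parp14* is brightest in δ-like cells with both cytokines, at 649 CPM.

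Markers of other cells in the β-like class were measured beside these results. The summed endothelial markers were at 6.73, 3.35, 6.63 and 3.52 CPM (libraries in the order used above), with 1, 5, 1 and 5 of the 10 markers at 0. Summed macrophage markers were at 74, 50.6, 47.6 and 148, most of it *C1qa* at 69.1, 35.4, 39.8 and 136, so they were highest after both cytokines. Summed acinar markers were at 82.9, 14.6, 86.1 and 322, again highest after both. Summed ductal markers were at 402, 549.8, 409.9 and 539, led by *Krt7* or *Krt18*. In α-like cells summed macrophage markers were at 55.2, 17.3, 26.1 and 47.7 CPM, and in δ-like cells at 105, 31.4, 68.0 and 91.6. Summed ductal markers in α-like cells were at 2844, 9634, 3647 and 5217, most of it *Spp1*. Their part in the results was not tested.

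The other genes of the ADP-ribose pathway were read in β-like cells by list. Of 9 other PARP family genes 2 were 2-fold higher in each cytokine library, *Tiparp* and *Zc3hav1*, against 14.2%, 3.83% and 9.94% of all genes after IL-1β, IFN-γ and both. Without hormone genes in the totals the counts were 2, 1 and 1. *Tiparp*, an aryl hydrocarbon receptor target, was at 7.33 CPM untreated, 36.5 after IL-1β, 18.4 after IFN-γ and 15.8 after both, so unlike the members it was highest after IL-1β alone. *Zc3hav1*, which encodes the zinc-finger antiviral protein, was at 27.5, 77.7, 88.4 and 72.6. *Parp16*, of the endoplasmic reticulum membrane, was 2-fold lower after both, at 2.05 against 8.88 untreated. The list's median log2 ratio was 0.70, 0.39 and 0.11 in the IL-1β, IFN-γ and double-treated libraries, against 0.34, 0.29 and 0.03 for all genes.

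None of 9 genes for enzymes that remove ADP-ribose or proteins that read it passed 2-fold in either direction, and their medians of 0.52, 0.37 and 0.08 lay near those of all genes. *Parg*, which cuts ADP-ribose chains, was at 19.4 CPM untreated and 21.1 after both. None of the 3 other Deltex genes tested and none of 9 strand-break repair genes that work with PARP1 and PARP3 passed 2-fold. *Dtx3*, the close relative of *Dtx3l*, was at 24.9, 21.5, 21.8 and 20.4 CPM. Of 7 NAD genes tested, 1 was 2-fold higher in each cytokine library, *Nampt*, the rate-limiting enzyme of NAD salvage. It was at 33.5 CPM untreated, 108 after IL-1β, 164 after IFN-γ and 175 after both. Without hormone genes in the totals 9 NAD genes were tested, and 1, 2 and 1 were 2-fold higher. For all these lists the shares of all genes were 14.2%, 3.83% and 9.94% after IL-1β, IFN-γ and both. Without hormone genes they were 6.75%, 2.48% and 8.17%, and lists this short were not tested against them.

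Reference genes of each cytokine gave the scale. Of 16 interferon signalling and target genes 14 were 2-fold higher in β-like cells with IL-1β, 13 after IFN-γ and 15 after both, against the same 14.2%, 3.83% and 9.94% of all genes. Without hormone genes in the totals the counts were 9, 12 and 14. *Socs1*, *Gbp2* and *Isg15*, at 0.698, 1.55 and 0.798 CPM untreated, passed the minimum of 2 CPM only through their cytokine libraries. Counts that hold them are no support by themselves. *Gbp2*, a guanylate-binding protein, was at 1.55 CPM untreated, 285 after IL-1β, 831 after IFN-γ and 1828 after both. *Gbp2* and *Irf1* were higher after both than after IFN-γ alone, as *Parp14* was. Of 6 IL-1 reference genes 5 were 2-fold higher after IL-1β, 3 after IFN-γ and 5 after both, against the same shares of all genes. The 3 after IFN-γ were *Icam1*, *Nos2* and *Cxcl1*, at 0.449, 0.0499 and 0 CPM untreated. They passed the minimum of 2 CPM only through their cytokine libraries, so these counts are also no support by themselves. *Nfkbia*, an inhibitor of NF-κB, was at 48.9, 479, 50.6 and 621. *Icam1*, an adhesion molecule, was at 0.449, 134, 3.28 and 399, a ratio of 7.30 after IFN-γ alone (3.54 to 16.9).

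The level of each member but *Parp3* was also correlated with other genes over 12 points, 3 endocrine classes in 4 libraries. *Parp3* was under the limit of 100 UMIs in β-like cells after both cytokines that was set for this comparison. The 8151 genes compared had a mean of at least 10 CPM over the 12 points. The points share libraries and cells of different depth, and the r values are descriptions. The genes most like *Parp14* were *Trafd1* (r = 0.978), *Tap2* (0.976), *Gbp3* (0.973), *Dtx3l* (0.970) and *Rmdn3* (0.969). *Dtx3l* was most like *Gbp2* (0.981) and *Gbp4* (0.979). *Parp9* was most like *Herc6*, *Parp12* and *Uba7*, each at 0.971. *Dtx3l* was thus not among the 5 genes most like its partner *Parp9*, with r = 0.940. *Parp12* followed *Psmb9* (0.976), *Parp10* followed *Pml* (0.973) and *Parp11* followed *Mllt3* (0.965). *Parp1* ran against *Parp14*, at r = -0.546.

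β-like cells of each library were split by *Hspa1a*, a heat-shock gene, and by *Nos2*, the inducible nitric oxide synthase. With both cytokines 79 cells had at least 10 *Hspa1a* UMIs per 10000 and 1195 had fewer, at like median depths of 11800 and 12196 UMIs. *Parp14* was at 173 CPM in the former and 353 in the latter, a ratio of 0.491 (0.415 to 0.577). *Parp9* was at 78.2 against 179 (0.437, 0.339 to 0.555), *Parp12* at 51.0 against 105 and *Dtx3l* at 96.3 against 177. In the same cells *Irf1* was about level, at 0.958 (0.846 to 1.08). *Parp1*, at 0.732 (0.405 to 1.22), and *Parp11*, at 0.673 (0.319 to 1.26), had intervals that held 1. After IFN-γ alone, where 80 cells were over the limit, *Parp1* was at 0.309 (0.141 to 0.592) and *Irf1* at 0.453 (0.352 to 0.575), beside 0.296 for *Parp9* and 0.431 for *Parp14*, so there the lower values were not limited to the IFN-γ-linked members. With IL-1β alone *Parp14* was at 0.430 and *Parp9* at 0.319 in the *Hspa1a*-high cells, where *Irf1* was 3.74 times higher. At a limit of 5 UMIs per 10000 the ratios after both cytokines were closer to 1, at 0.660 for *Parp14* and 0.619 for *Parp9*.

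Cells with a *Nos2* UMI had more of several of the same transcripts in the library with both cytokines. There 901 β-like cells had at least 1 *Nos2* UMI and 373 had none, and the former were deeper, with a median of 12768 against 10419 UMIs. *Parp14* was at 374 CPM in cells with *Nos2* and 250.4 in cells without it, a ratio of 1.49 (1.39 to 1.60). *Parp9* was 1.53 times and *Dtx3l* 1.43 times higher. *Parp1* was within counting error of 1, at 1.1 (0.854 to 1.42), as was *Parp11*, at 1.31 (0.966 to 1.82). After IL-1β alone, with 333 cells against 833, the ratio was 1.43 for *Parp14* (1.19 to 1.72), 1.26 for *Parp9* (1.03 to 1.54) and 1.25 for *Dtx3l* (1.01 to 1.53), while those of *Parp12*, at 1.15 (0.904 to 1.46), and *Parp10*, at 1.41 (0.992 to 1.98), had intervals that held 1.

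**Figure D5:**
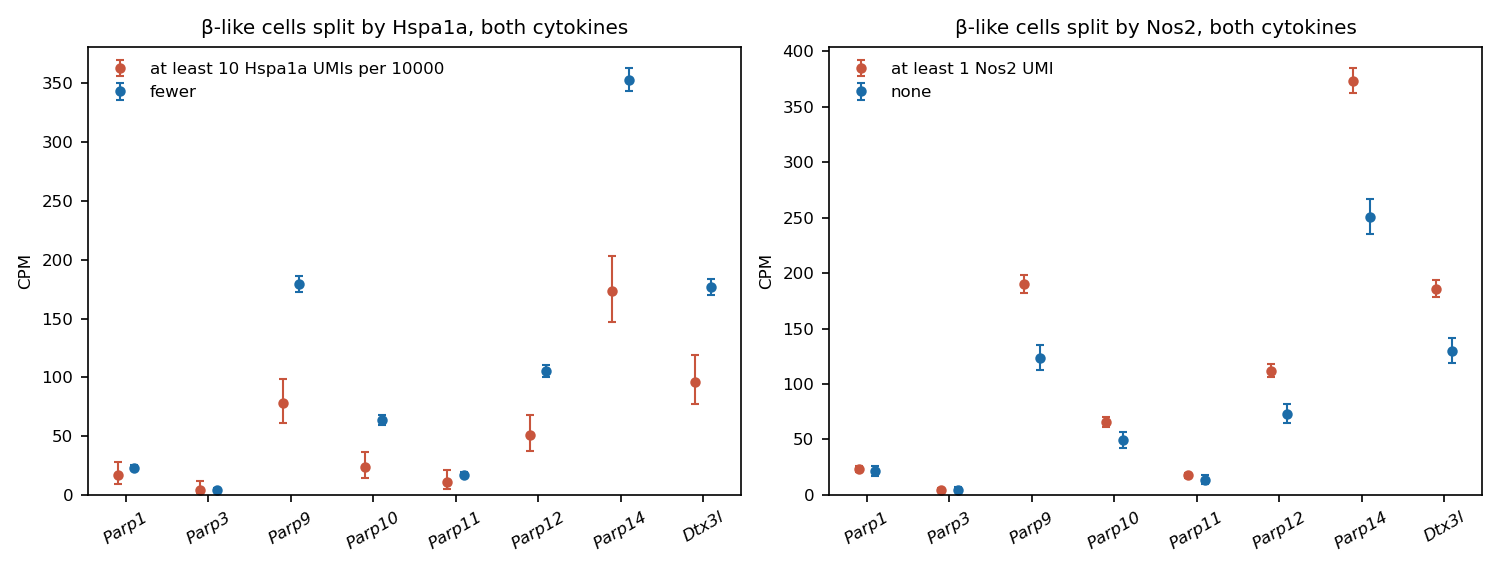
Level of the 8 genes (vertical axis, CPM, starting at 0) in β-like cells of the library after both cytokines, split at 10 *Hspa1a* UMIs per 10000 (left) and by the presence of a *Nos2* UMI (right), with 95% counting intervals. *Parp9*, *Parp10*, *Parp12*, *Parp14* and *Dtx3l* are lower in *Hspa1a*-high cells and higher in cells with *Nos2*.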

How the data were processed

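The authors deposited 4 matrices of UMI counts per gene and barcode, made with Cell Ranger against mm10 per the labels. The counts are raw whole numbers, and no cell annotation, doublet call or normalization by the authors was used here. The kit version differs between the sources and is not given here.

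From these counts, barcodes outside 200 to 4000 genes or above 12% mitochondrial UMIs were dropped. Cells were classed by hormone share (over 3% insulin, 2% glucagon, 1% somatostatin or 7% pancreatic polypeptide) or by at least 3 marker genes, with limits set after the share distributions were seen. Cells with more than 1 hormone, and endocrine cells with 4 or more markers of endothelial, macrophage or mesenchymal cells, were set apart. No doublet caller was run. Counts were summed per class and library and divided by the class total, as counts per 1000000 (CPM). Ratios between libraries have exact conditional Poisson 95% intervals. The ratio calculation was tested on simulated data. No differential test was run, since each condition had 1 library.

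All 8 members were described. From each gene list every gene was counted, and 2 to 4 with the highest level or largest ratio were named, and by r over log2 of CPM plus 10 the 5 most alike genes were taken. Members and lists were chosen with earlier results of these data known. Of 31053 gene IDs 30934 matched the GENCODE annotation used for positions. Python 3.11.15, numpy 2.4.6, scipy 1.17.1, pandas 2.3.3 and matplotlib 3.10.9 were used.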

Additional observations from a re-analysis of the deposited data

Results flagged for a closer look

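Under IL-1β, 5 pairs of ratios pointed opposite ways in 2 endocrine classes, higher than untreated in β-like cells and lower in the other class, with an interval for their quotient that left out 1. The β-like ratio divided by the α-like ratio was 4.12 for *Parp9*, 4.70 for *Parp14* and 2.17 for *Parp11*. Against δ-like cells it was 3.47 for *Parp10* and 3.02 for *Parp11*. Without hormone genes in the totals the β-like ratios of *Parp10* and *Parp11* after IL-1β were 1.08 and 1.03, above but close to 1, so in 3 of the 5 pairs the β-like side was about level with untreated under this scaling. The median log2 ratio of all genes was 0.34 in β-like, -0.07 in α-like and -0.04 in δ-like cells. With 1 library per condition these differences were not tested, and all 5 α-like or δ-like ratios had intervals that held 1.

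Cells removed by the filters also carried the transcripts, and there 7 members were above the untreated level. In the 447 cells over the mitochondrial limit with both cytokines, against 1120 untreated ones, *Parp14* was at 428 CPM (14.6 untreated), *Dtx3l* at 105 (6.33) and *Parp12* at 99.9 (8.23). *Parp9* was at 91.5 (6.65), *Parp10* at 65.4 (9.18), and *Parp11* and *Parp3* at 16.6 (4.12 and 0.317). In the 222 cells over the gene limit with both cytokines, against 843 untreated ones, *Parp14* was at 403 (13.9), *Parp9* at 180.3 (12.3), *Dtx3l* at 175 (10.8) and *Parp12* at 132 (13.7). *Parp10* was at 65.9 (8.40), *Parp3* at 24.9 (1.39) and *Parp11* at 23.4 (7.25). These cells were not divided into classes.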

How the results depend on the processing

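The 85 member ratios were recomputed under 9 alternatives, of which dividing by the median of all genes and leaving out shared barcodes were chosen after seeing the data. Of 762 values 702 moved by less than their interval, 60 moved further and 0 turned direction among called values. Called here means 2-fold without the 1 CPM that was added for the counts of members above. Of 54 ratios called 2-fold higher in this way, 54 stayed at or above 1 and 50 at or above 2 in every alternative. The δ-like ratios of *Parp3*, which had no untreated UMI, are not among the 85. Without hormone genes in the totals 3 members were 2-fold higher in β-like cells with IL-1β in place of 5, and 0 in α-like cells in place of 1. The share of all genes 2-fold higher in β-like cells after IL-1β was then 6.75% in place of 14.2%. The interferon list after IL-1β had 9 genes 2-fold higher in place of 14, and the other PARP family genes 1 in place of 2 after IFN-γ and after both. A fold limit of 1.5 gave 2 in α-like cells with IL-1β (1 without *Parp3*), where 17.7% of all genes passed in place of 8.61%. For both cytokines against IFN-γ in β-like cells the count of 1 became 2 with no upper gene limit, with cells thinned, without hormone genes or with cells weighted equally, and 3 with ratios divided by the median of all genes or at a fold limit of 1.5. The share of all genes was 4.86%, 5.17%, 5.93%, 4.62%, 7.18% and 9.05% in these settings, and without *Parp3* the counts were 0 in place of 1, then 1 for each of 2 and 2 for each of 3. Thinning to 4000 UMIs, with fewer transcripts, moved the ratio for both cytokines of *Parp3* in β-like cells to 26.8 and of *Parp12* in δ-like cells to 10.2. No paired analysis was possible because each condition had 1 library. Depth limits *Parp3* in endocrine cells and all members in the smaller classes.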
